A study of Danio rerio with 10 samples.

Results

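The transcripts of the immediate early genes egr1, jun and fosl2 and of the cytokine signalling suppressors socs3a and socs3b were read in whole adult male zebrafish exposed to 17beta-estradiol (E2) with and without an estrogen receptor antagonist. All probes that the annotation of the array assigns to these 5 genes were taken, whatever their values, which gave 8 of the 16416 probes of the array and 5 of the 5356 gene symbols it names. There were 2 probes each for egr1, jun and fosl2 and 1 probe each for socs3a and socs3b. All 8 probes had a value on all 10 arrays and entered the test.

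Adult males, for which the labels give no strain or genotype, were held for 96 h in 1 of 3 media. The control group (4 fish) received 0.01% ethanol, the E2 group (3 fish) received E2, and the E2+ICI group (3 fish) received E2 together with ICI (fulvestrant) at 1 µM, a pure antagonist of the estrogen receptors. Ethanol, the solvent, was at a similar level in all 3 media. The treatment protocol gives the E2 dose as 10 nM, whereas the sample titles give it as 10 mM. RNA came from individual whole fish, so each array is 1 animal and a value is an average over all its tissues. Each fish was hybridised against a common reference of pooled male and female liver RNA, and the values are log2 ratios of fish to reference. The sources do not state which channel is the numerator, and fish over reference was taken because the study describes its values as levels above the reference RNA.

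The estrogen exposure was visible in vtg3, a yolk protein precursor, which stood between -6.96 and -5.64 in the control, at 0.77, 0.86 and 2.01 in the E2, and between -0.39 and 0.01 in the E2+ICI fish. Its E2 to control difference was 7.66 (SE 0.35, adjusted p = 3.17e-07). With ICI it was still above control by 6.3 (adjusted p = 4.51e-06), and its E2+ICI to E2 difference did not pass (-1.36, adjusted p = 0.0564). Of 3 probes for the estrogen markers vtg3, esr1 and cyp19a1b, 0 passed in that last comparison, where 5.42% of all probes did. After quantile normalization 2 passed lower, where 24.2% of all probes were called. The spread of the arrays differed between groups. The SD over probes was 0.796 to 1.074 on control arrays, 0.461 to 0.514 on E2 arrays and 0.373 to 0.561 on E2+ICI arrays, which is why values scaled to a common distribution are given below wherever they turned a direction. Repeated spots of actb2, between 149 and 172 with a value on an array, had SDs of 0.11 to 0.123 on control, 0.186 to 0.335 on E2 and 0.049 to 0.222 on E2+ICI arrays.

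Immediate early genes are transcribed soon after a cell meets a growth factor, hormone or stress, before any new protein has to be made. Egr1 is a zinc finger transcription factor, while Jun and the Fos relative Fosl2 pair through leucine zippers to form AP-1, which binds DNA at sites that in mammalian cells can also recruit estrogen receptors. Socs3 is induced by cytokine receptors through Janus kinases and STAT factors, and it binds those receptors and kinases to shut the signal down. Zebrafish carry socs3a and socs3b as duplicates of the mammalian gene.

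After E2, the transcripts read by both fosl2 probes, by 1 jun probe and by the socs3a and socs3b probes fell, while those read by the other jun probe and by 1 egr1 probe rose. Of the 8 probes, 2 passed higher and 5 passed lower at an adjusted p under 0.05, and the second egr1 probe did not pass. The share called was 87.5%, against 35.6% of all 16208 probes tested (19.2% higher and 16.5% lower). In 7 of the 8 the E2 and control fish did not overlap, as in 43.1% of all probes (22% higher and 21% lower). The median log2 fold change over the 8 probes was -1.23, beside -0.07 over all probes. The 5 genes were chosen with earlier results of these data known. An excess over all probes could follow from that choice and is no independent evidence, here or in the other comparisons. In RNA of whole fish, fewer cells that carry a transcript and less of it per cell cannot be told apart.

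**Figure D1:**
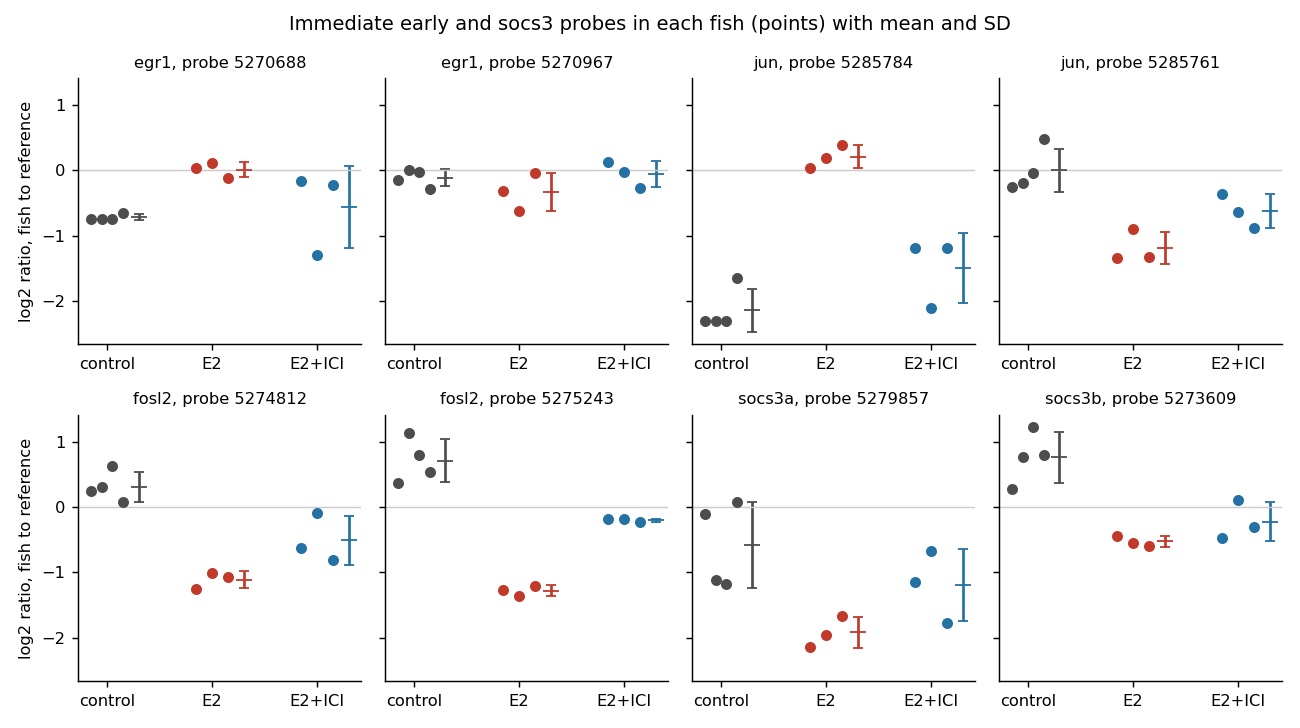
Log2 ratio of fish to reference (vertical axis) for each of the 8 probes in control, E2 and E2+ICI fish; points are single fish, and the bar beside them is the mean with its SD. The E2 fish lie below all control fish on both fosl2 probes, on jun probe 5285761 and on both socs3 probes, and above all control fish on jun probe 5285784 and egr1 probe 5270688.

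The AP-1 subunit fosl2 was the gene whose probes moved most alike. On probe 5275243 the control fish read 0.37, 1.13, 0.80 and 0.54, the E2 fish -1.27, -1.36 and -1.20, and the E2+ICI fish -0.19, -0.19 and -0.23. All 3 E2 fish lay below every E2+ICI fish, and all 3 E2+ICI fish lay below every control fish. The level fell from 0.71 ± 0.33 (SD, n = 4) in control to -1.28 ± 0.08 (SD, n = 3) in E2 fish, a log2 fold change of -1.99 (SE 0.18, 3.97-fold lower, adjusted p = 1.2e-05).

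Probe 5274812 of fosl2 gave 0.24, 0.30, 0.62 and 0.08 in the control, -1.25, -1.01 and -1.07 in the E2 and -0.62, -0.09 and -0.81 in the E2+ICI fish. The order of the groups was that of the first probe, again without overlap between any of them. E2 fish averaged -1.11 ± 0.13 and control fish 0.31 ± 0.23, a log2 fold change of -1.42 (SE 0.20, 2.67-fold lower, adjusted p = 0.000234). Over the 10 arrays the fosl2 probes had a Pearson r of 0.93, a description over arrays that share their 3 groups. The response to E2 was smaller by 0.57 on probe 5274812, with an exact two-sided permutation p of 0.0571, which is the smallest that 4 against 3 fish allow (0.128 after adjustment over the 9 probe pair comparisons made).

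The AP-1 partner jun gave opposite readings on its 2 probes, which the array annotation lists under the same GenBank accession. On probe 5285784 the control fish stood at -2.30, -2.31, -2.31 and -1.64, the E2 fish at 0.04, 0.19 and 0.39, and the E2+ICI fish at -1.19, -2.11 and -1.19. All E2 fish were above all other fish, and E2+ICI replicate 2 lay within the range of the control fish. The mean rose from -2.14 ± 0.33 in control to 0.21 ± 0.17 in E2 fish, a log2 fold change of 2.35 (SE 0.25, 5.08-fold higher, adjusted p = 4.43e-05).

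On probe 5285761 of jun the control fish read -0.25, -0.20, -0.04 and 0.48, the E2 fish -1.34, -0.90 and -1.32, and the E2+ICI fish -0.36, -0.64 and -0.88. Here the E2 fish were the lowest and the control fish the highest, with E2+ICI replicate 3 at -0.88 just above E2 replicate 2. The mean fell from 0.00 ± 0.33 in control to -1.19 ± 0.25 in E2 fish, a log2 fold change of -1.18 (SE 0.21, 2.27-fold lower, adjusted p = 0.00133). Both jun calls held in 22 of 22 alternative settings.

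The difference between the jun probes within a fish, 5285761 minus 5285784, was 2.05, 2.11, 2.26 and 2.12 in control, -1.39, -1.08 and -1.71 in E2, and 0.84, 1.48 and 0.31 in E2+ICI fish. It was above 0 in every control and E2+ICI fish and below 0 in every E2 fish, and the 3 groups did not overlap. The responses to E2 of these probes differed by -3.53 (exact permutation p = 0.0571, the smallest possible, adjusted p = 0.128), so that no comparison of this size could have passed the threshold. Before the Lowess step of the authors the difference was -3.91.

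Ranks within an array, which do not depend on its spread, showed the same opposition for E2 against control. Probe 5285784 lay between the 1.8 and 7.1 percentiles of the control arrays and between 54.4 and 89.3 on the E2 arrays. Probe 5285761 lay between 33.0 and 75.0 on control and between 1.7 and 3.7 on E2 arrays. On the E2+ICI arrays both were low, at 0.3 to 1.2 for probe 5285784 and 2.5 to 14.1 for probe 5285761, so that probe 5285784 ranked lower there than on any control array although its log2 ratios were not lower.

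**Figure D2:**
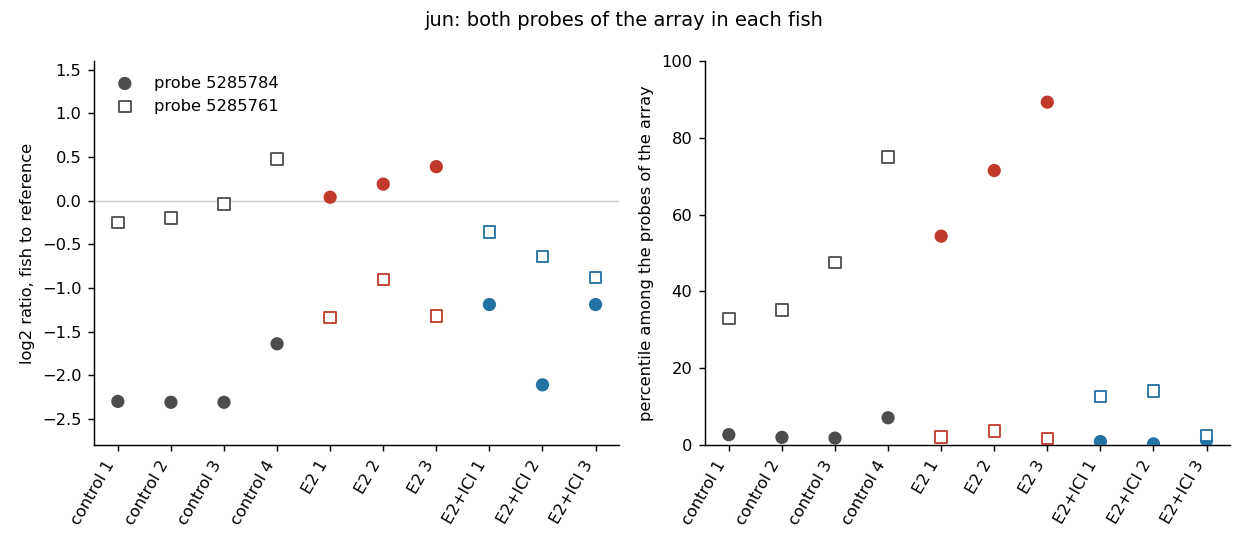
Both jun probes in each of the 10 fish, as log2 ratio to reference (left) and as percentile among all probes of the same array (right); filled circles are probe 5285784 and open squares probe 5285761. Their order is turned in the 3 E2 fish, where probe 5285784 reads 0.04 to 0.39 and probe 5285761 -1.34 to -0.90.

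To place jun among the other genes with several probes, all 495 symbols with 2 to 10 tested probes were examined. In 122 of them at least 2 probes passed for E2 against control, and in 10 of these (8.2%) the calls went in both directions, jun among them. Of 26 accessions with several probes, 3 had at least 2 probes called, and that of jun was the 1 with calls in both directions. Where on the transcript each oligo lies, on which strand it lies, and whether it reads another transcript was not tested.

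The zinc finger factor egr1 differed between its probes too, with smaller values. Probe 5270688 read -0.74, -0.74, -0.75 and -0.65 in the control, 0.04, 0.11 and -0.12 in the E2 and -0.17, -1.29 and -0.23 in the E2+ICI fish. The E2 fish were above all other fish, and the E2+ICI fish lay on both sides of the narrow control range. The rise from -0.72 ± 0.04 to 0.01 ± 0.12 was 0.73 (SE 0.24, 1.66-fold, adjusted p = 0.0338). This call was lost in 8 of 22 alternatives, among them quantile normalization (0.54, adjusted p = 0.127), arrays scaled to equal spread (0.53, adjusted p = 0.0667), and leaving out control replicate 1, 2 or 3 (0.72 each, adjusted p = 0.0619, 0.0619 and 0.061) or E2 replicate 1, 2 or 3 (0.71, 0.68 and 0.79, adjusted p = 0.0928, 0.1 and 0.0643).

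Probe 5270967 of egr1 read -0.15, 0.01, -0.03 and -0.28 in the control, -0.32, -0.62 and -0.04 in the E2 and 0.13, -0.02 and -0.27 in the E2+ICI fish, and all 3 groups overlapped. Its E2 to control difference was -0.21 (SE 0.17, adjusted p = 0.369), with a 95% interval from -0.59 to 0.16. The difference in response between the egr1 probes was 0.94 (exact permutation p = 0.0571, adjusted p = 0.128).

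A further probe, 5282531, has no gene symbol in the array annotation but is paired with human EGR1 in the homolog table of the study, and it was looked at for that reason without being counted among the 8. It read -0.67, -0.02, 0.34 and 0.18 in the control, -2.13, -1.44 and -1.86 in the E2 and -0.89, -0.67 and -1.27 in the E2+ICI fish. The E2 fish were the lowest, and a single control fish, at -0.67, reached the highest E2+ICI fish. E2 lowered it by 1.77 on the log2 scale, from -0.04 ± 0.44 to -1.81 ± 0.34 (SE 0.26, 3.4-fold lower, adjusted p = 0.000345), so that the 3 probes tied to egr1 gave a rise, no call and a fall.

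The suppressors socs3a and socs3b both fell after E2. For socs3b, the control fish stood at 0.27, 0.76, 1.22 and 0.80, the E2 fish at -0.44, -0.55 and -0.59, and the E2+ICI fish at -0.48, 0.11 and -0.30. Every control fish was above every other fish, and E2+ICI replicate 1 lay within the E2 range. The mean fell from 0.76 ± 0.39 to -0.53 ± 0.08, a log2 fold change of -1.29 (SE 0.22, 2.45-fold lower, adjusted p = 0.000923).

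The duplicate socs3a was more variable among control fish, which read -0.11, -1.11, -1.17 and 0.07, against -2.14, -1.95 and -1.66 in the E2 and -1.14, -0.67 and -1.77 in the E2+ICI fish. E2 fish again lay below all control fish, whereas the E2+ICI fish overlapped both other groups. The fall from -0.58 ± 0.65 to -1.92 ± 0.24 was -1.34 (SE 0.34, 2.53-fold lower, adjusted p = 0.0107). It passed in 22 of 22 alternatives, with a highest adjusted p of 0.0487 and values from -2.30 (quantile normalization) to -0.94 (array weights). Over the 10 arrays socs3a and socs3b had an r of 0.60, and socs3b an r of 0.93 with fosl2 probe 5274812.

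Leukocytes carry much of the cytokine signalling in which socs3 acts. Leukocyte markers moved in the same direction, and so did liver markers. Of 8 marker probes, 6 passed lower and 0 higher for E2 against control, where 16.5% and 19.2% of all probes did, with a median of -1.04. Their mean on an array was between -0.08 and 0.60 in control, between -0.53 and -0.46 in E2 and between -0.36 and -0.06 in E2+ICI fish. The actin bundling gene lcp1, which had the lowest adjusted p of the list, was at -0.16 to 0.23 in control fish, -1.21 to -1.06 in E2 fish and -0.70 to -0.10 in E2+ICI fish. The neutrophil peroxidase gene mpx ranged over 1.71 to 2.01 in control fish, with E2 fish at 0.31 to 0.92 and E2+ICI fish at -0.33 to -0.14. The lysozyme gene lyz and the gene cd74a overlapped between all groups, and cd74a did not pass for E2 against control (0.04, adjusted p = 0.942). Set against E2 alone, mpx was lower with ICI (-0.92, adjusted p = 0.0193), and lcp1 (0.74, adjusted p = 0.0413) and cd74b (1.23, adjusted p = 0.028), an antigen presentation gene, were higher. No other leukocyte probe passed there, and 2.88% of all probes were called higher and 2.54% lower. Before Lowess, 0 of the 8 passed higher and 1 lower in that comparison, where 2.35% of all probes were called. For E2 against control, 3 of 5 liver marker probes passed lower, and of 8 muscle probes 1 passed in each direction. Of 3 red blood cell probes 0 passed (adjusted p under 0.05), and of 10 heat shock probes, which can mark handling, 3 passed higher and 2 lower. The shares of all probes in that comparison were 16.5% lower and 19.2% higher. At an unadjusted p under 0.05 the red blood cell count was 1, and with SAM, the permutation test of the study's methods, it was 0. Of all 16208 probes 7305 had an unadjusted p under 0.05, and 29% were called with SAM. With arrays scaled to equal spread 4 leukocyte probes passed lower for E2 against control, where 37.3% of all probes were called. The count was 5 after quantile normalization (37% of all probes), 6 before Lowess (33.9%) and 6 with SAM (29%). The part of these cell types in the results was not tested.

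With ICI added, the means of 7 of the 8 probes lay between those of the control and E2 groups. Against control, 0 of the 8 passed higher and 3 lower, the 2 fosl2 probes and socs3b, a share of 37.5% where 12% of all probes were called (8.92% higher and 3.04% lower). At an unadjusted p under 0.05 1 probe was higher and 4 were lower, beside 4245 of all 16208 probes in either direction. With SAM 0 were higher and 1 was lower, where 6.97% of all probes were called. E2+ICI and control fish did not overlap on 4 of the 8 probes, as on 25% of all probes (15.5% higher and 9.53% lower). This comparison shares its control fish with that of E2 against control, so the values of each probe are given side by side and not as independent results.

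The fosl2 level in E2+ICI fish averaged -0.20 ± 0.02 on probe 5275243 and -0.51 ± 0.37 on probe 5274812. Against control the differences were -0.91 (SE 0.18, 1.88-fold lower, adjusted p = 0.00655) and -0.81 (SE 0.20, 1.76-fold lower, adjusted p = 0.0198), beside -1.99 and -1.42 for E2 alone. The call on probe 5274812 was lost without E2+ICI replicate 1 (-0.76, adjusted p = 0.0839) and without E2+ICI replicate 3 (-0.66, adjusted p = 0.112). For socs3b the difference was -0.99 (SE 0.22, 1.98-fold lower, adjusted p = 0.0135), and it missed the threshold without E2+ICI replicate 1 (-0.86, adjusted p = 0.07) and without E2+ICI replicate 3 (-0.95, adjusted p = 0.0677).

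The remaining probes did not pass against control. For socs3a the difference was -0.61 (adjusted p = 0.294) with overlapping groups, and for jun probe 5285761 it was -0.62 (adjusted p = 0.0859) with all E2+ICI fish below all control fish. The latter passed as lower after quantile normalization (-0.90, adjusted p = 0.0431) and with arrays scaled to equal spread (-0.78, adjusted p = 0.0445). Jun probe 5285784 differed by 0.64 (SE 0.25, adjusted p = 0.13), and the sign of this value depended on how the arrays were scaled. It became -1.22 (adjusted p = 0.0316) after quantile normalization and -0.24 (adjusted p = 0.578) with arrays scaled to equal spread, whereas it passed as higher without E2+ICI replicate 2 (0.95, adjusted p = 0.0193) and without control replicate 4 (0.81, adjusted p = 0.0317). The egr1 probes differed by 0.16 (95% interval -0.37 to 0.68) and 0.06 (-0.32 to 0.44), and both turned sign with either scaling. Without E2+ICI replicate 2, which stood at -1.29, egr1 probe 5270688 was higher than in control by 0.52 (adjusted p = 0.0397).

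The direct comparison of E2+ICI with E2 gives how far a transcript differed when ICI was added. No group received ICI alone, so an effect of ICI itself cannot be told apart from antagonism of E2. The comparison shares its E2 fish with that of E2 against control, so its calls are not independent of those. Of the 8 probes, 1 passed higher (fosl2 probe 5275243) and 1 lower (jun probe 5285784), a share of 25% beside 5.42% of all probes (2.88% higher and 2.54% lower). The all-probe share rested on the scaling. It was 24.2% after quantile normalization, where again 1 of the 8 was higher and 1 lower, and 23.6% with arrays scaled to equal spread, where 2 were higher and 1 lower. In 5 of the 8 the groups did not overlap, as in 42.5% of all probes (22.7% higher and 19.9% lower), and 3 against 3 fish limit what can be called.

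The jun reading of probe 5285784 fell from 0.21 ± 0.17 in E2 to -1.50 ± 0.53 in E2+ICI fish, a log2 fold change of -1.70 (SE 0.27, 3.26-fold lower, adjusted p = 0.00813), and this call was kept in 21 of 21 alternatives, with a largest value of -2.97 after quantile normalization. On probe 5275243 of fosl2 the level rose by 1.08 (SE 0.19, 2.11-fold, adjusted p = 0.0134). That call was lost without E2 replicate 1, 2 or 3 (1.08, 1.04 and 1.12, adjusted p = 0.056, 0.0536 and 0.0507) and without E2+ICI replicate 2 (1.07, adjusted p = 0.0582), although the value hardly moved. The other fosl2 probe differed by 0.60 (95% interval 0.15 to 1.06, adjusted p = 0.108) and jun probe 5285761 by 0.56 (SE 0.23, adjusted p = 0.158). For socs3a the difference was 0.72 (SE 0.37, adjusted p = 0.257) and for socs3b 0.31 (95% interval -0.21 to 0.82, adjusted p = 0.457), and for both the groups overlapped. Egr1 probe 5270688 was lower in each E2+ICI fish than in any E2 fish, by -0.57 on average (adjusted p = 0.198). E2+ICI replicate 2 set most of that value, which was -0.21 (adjusted p = 0.523) without it and -0.25 (adjusted p = 0.269) with array weights.

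Expressed as the share of the E2 difference in log2 ratio that was absent with ICI, the 7 probes called for E2 gave 0.785 for egr1 probe 5270688, 0.726 for jun probe 5285784, 0.542 and 0.427 for fosl2 probes 5275243 and 5274812, 0.541 for socs3a, 0.475 for jun probe 5285761 and 0.238 for socs3b. These shares have no test, and their numerator and denominator hold the same E2 fish. Over 21 alternatives they ran from 0.287 (without E2+ICI replicate 2) to 1.37 (quantile normalization) for egr1 probe 5270688 and from 0.596 to 1.69 under the same settings for jun probe 5285784, where a value above 1 means that E2+ICI fish lay beyond the control mean. The ranges were 0.487 to 0.632 and 0.279 to 0.534 for fosl2 probes 5275243 and 5274812, 0.331 to 0.757 for socs3a, 0.323 to 0.637 for jun probe 5285761 and 0.11 to 0.338 for socs3b. In each of these settings socs3b had the smallest share of the 7 probes, while the order of the others was not fixed. The E2+ICI fish were not alike. Replicate 2 was nearest to the control mean on 6 of the 8 probes, and over all probes it also correlated most with the control mean (r = 0.682, against 0.573 and 0.445 for replicates 1 and 3). For esr1, the estrogen receptor alpha gene, that fish read -0.86, against 0.15 and 0.03 in the other E2+ICI fish, while control fish lay between -1.50 and -0.43 and E2 fish between 0.54 and 1.39.

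**Figure D3:**
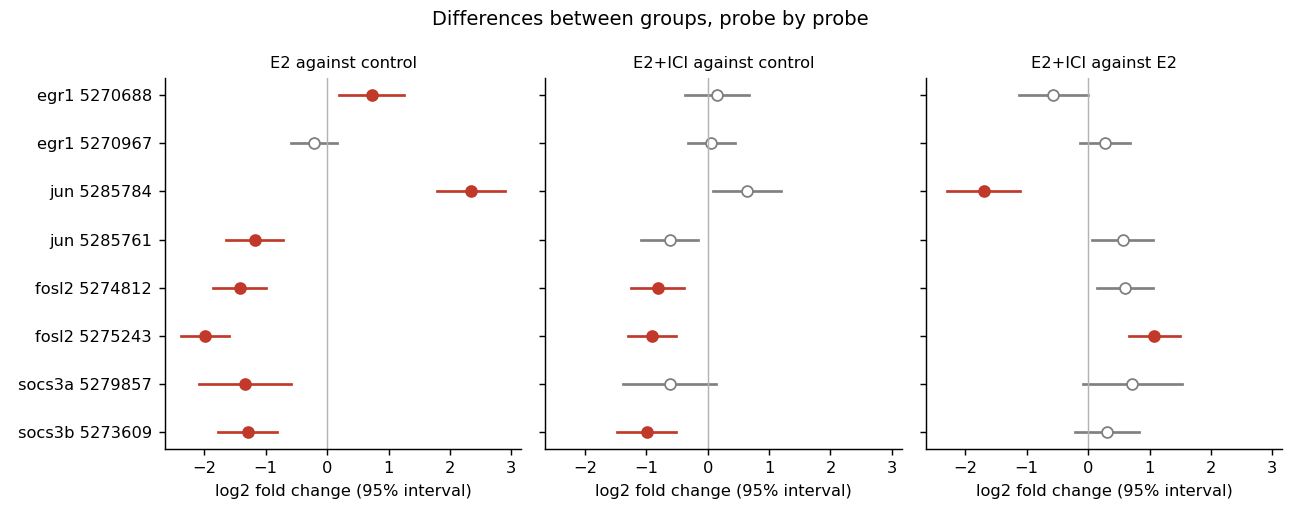
Log2 fold change with its 95% interval for each of the 8 probes in the 3 comparisons; filled red points passed an adjusted p under 0.05 over all probes tested, open points did not. For E2 against control 7 points are filled, 2 to the right and 5 to the left of 0, while 3 are filled where E2+ICI is set against control and 2 where it is set against E2.

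For E2 against control, the probes called for other genes of these pathways went in both directions, except that the 3 called cytokine receptor probes were all lower. Few relatives of the 5 genes were found by symbol, and 10253 of the 16416 probes carry no symbol. Of the other AP-1 genes only maff, a small Maf leucine zipper protein, had a probe under its symbol, which did not pass (-0.34, adjusted p = 0.272). The Egr relatives egr2b and egr4 and the Egr corepressor nab1a had differences of -0.30, 0.07 and -0.22, and 0 of the 3 passed by limma, by SAM or at an unadjusted p under 0.05 (lowest adjusted p 0.262). Of 10 probes for MAP kinases and serum response factors, the usual activators of immediate early genes, 0 passed for E2 against control by limma or SAM, 3 were higher at an unadjusted p under 0.05, and the median was 0.04. Of all 16208 probes tested, 35.6% passed by limma, 29% by SAM, and 7305 had an unadjusted p under 0.05.

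Of 29 probes for 23 other immediate early genes, 7 passed higher and 10 lower, where 19.2% and 16.5% of all probes did, with a median of -0.37 beside -0.07 over all probes. With SAM 5 were higher and 7 lower (29% of all probes called), and after quantile normalization 3 were higher and 11 lower (37% of all probes called). The antiproliferative gene btg2 ranged over -3.13 to -2.73 in control fish, with E2 fish at -0.45 to -0.37 and E2+ICI fish at -1.47 to -0.75. None of its groups overlapped, and E2 raised it by 2.45 (SE 0.18, adjusted p = 3.34e-06). The MAP kinase phosphatase gene dusp1, which ends the kinase signal, rose by 1.41 (SE 0.25, adjusted p = 0.00111), with -2.16 to -1.14 in control and -0.63 to -0.15 in E2 fish.

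In the other direction, the nuclear protein gene ier2a ranged over 0.16 to 0.53 in control fish, with E2 fish at -1.14 to -0.67 and E2+ICI fish at -0.67 to -0.03. It fell by 1.25 (SE 0.18, adjusted p = 0.000363). The growth arrest gene gadd45aa fell by 1.21 (SE 0.19, adjusted p = 0.00051), from 0.84 to 1.35 in control to between -0.33 and -0.05 in E2 fish. With ICI the differences from control were 1.84 for btg2, 0.94 for dusp1, -0.71 for ier2a and -0.88 for gadd45aa, and all 4 passed (highest adjusted p 0.0295). After quantile normalization these values were 0.23 for btg2 (adjusted p = 0.475), -0.04 for dusp1 (adjusted p = 0.949) and -0.61 for gadd45aa (adjusted p = 0.0705), so that for dusp1 the sign turned. Against E2 none of these 4 passed (lowest adjusted p 0.0898), whereas sgk1, a serum and glucocorticoid induced kinase (1.41, adjusted p = 0.0381), and the clock gene per1b (0.73, adjusted p = 0.0368) were higher with ICI. Before Lowess neither passed (adjusted p = 0.126 and 0.124). E2 alone had lowered sgk1 (-1.14, adjusted p = 0.0157) and per1b (-0.55, adjusted p = 0.0213). With ICI neither differed from control past the threshold (0.27, adjusted p = 0.641, and 0.18, adjusted p = 0.516). For E2+ICI against E2, over the list of 29 probes 2 were higher and 0 lower, where 5.42% of all probes were called. After quantile normalization 6 were higher and 4 lower, where 24.2% of all probes were called. With arrays scaled to equal spread 6 were higher and 1 lower, where 23.6% of all probes were called. The rise in calls was thus shared by the whole array. The calls gained by quantile normalization included btg2 (-1.12, adjusted p = 0.00173) and dusp1 (-0.79, adjusted p = 0.045).

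Of the other suppressors of cytokine signalling only socs6b had a probe under its symbol, and it moved opposite to socs3a and socs3b. It read -1.06, -0.71, -0.96 and -0.56 in control, 0.47, 0.23 and 0.63 in E2, and -0.30, -0.65 and -0.19 in E2+ICI fish. E2 raised it by 1.27 (SE 0.18, 2.41-fold, adjusted p = 0.000281), and with ICI it was lower than with E2 alone by 0.82 on the log2 scale (-0.82, adjusted p = 0.0349), a call that before Lowess was just missed (-1.03, adjusted p = 0.0509).

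Upstream of Socs3, 3 of 10 probes for Janus kinase and STAT pathway genes passed lower and 1 higher, beside 16.5% and 19.2% of all probes. The share called was near that of all probes (35.6%) in this fit, but not in every setting. After quantile normalization and with arrays scaled to equal spread 5 passed lower and 1 higher, where 37% and 37.3% of all probes were called. Before Lowess 4 passed lower and 1 higher (33.9% of all probes), and with SAM 3 lower and 1 higher (29%). Both probes of jak1, a kinase bound to cytokine receptors, fell, by 0.83 (SE 0.14, adjusted p = 0.00106) on probe 5269898 and by 0.97 (SE 0.18, adjusted p = 0.00153) on probe 5271418. The interferon signal factor stat2 fell by 0.97 (SE 0.18, adjusted p = 0.00167), and pias4a, which encodes an inhibitor of activated STAT proteins, rose by 1.11 (SE 0.17, adjusted p = 0.000447). For stat3, the STAT factor that induces Socs3 in mammals, the difference was -0.94 (SE 0.34, adjusted p = 0.0515). Among control fish it ranged from 0.33 to 0.43 except in replicate 4, which was at -0.93. With ICI the jak1 probes differed in their calls. Probe 5271418 stayed below control (-0.91, adjusted p = 0.00678), while probe 5269898 did not pass against control (-0.26, adjusted p = 0.284). On probe 5269898 the E2+ICI fish, at -0.02 to 0.08, still lay below all control fish, at 0.09 to 0.53. Such a separation was seen in 9.53% of all probes. Whether the jak1 probes differed in response was not tested.

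Of 4 cytokine receptor probes, 3 passed lower for E2 against control, where 16.5% of all probes did. The growth hormone receptor gene ghrb read 2.24, 0.96, 1.35 and 2.95 in control and -0.10, -0.25 and -0.27 in E2 fish, and it fell by 2.08 (SE 0.39, adjusted p = 0.0017). The prolactin receptor gene prlra fell by 1.36 (SE 0.15, adjusted p = 4.81e-05), and crfb1, a class II cytokine receptor gene, by 0.54 (SE 0.18, adjusted p = 0.0364, or 0.0574 before Lowess). With ICI, prlra stayed below control by 1.11 on the log2 scale (-1.11, adjusted p = 0.000609), but not with arrays scaled to equal spread (-0.49, adjusted p = 0.0657), while ghrb stood at 0.80, 0.21 and 0.77, between the other groups.

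**Figure D4:**
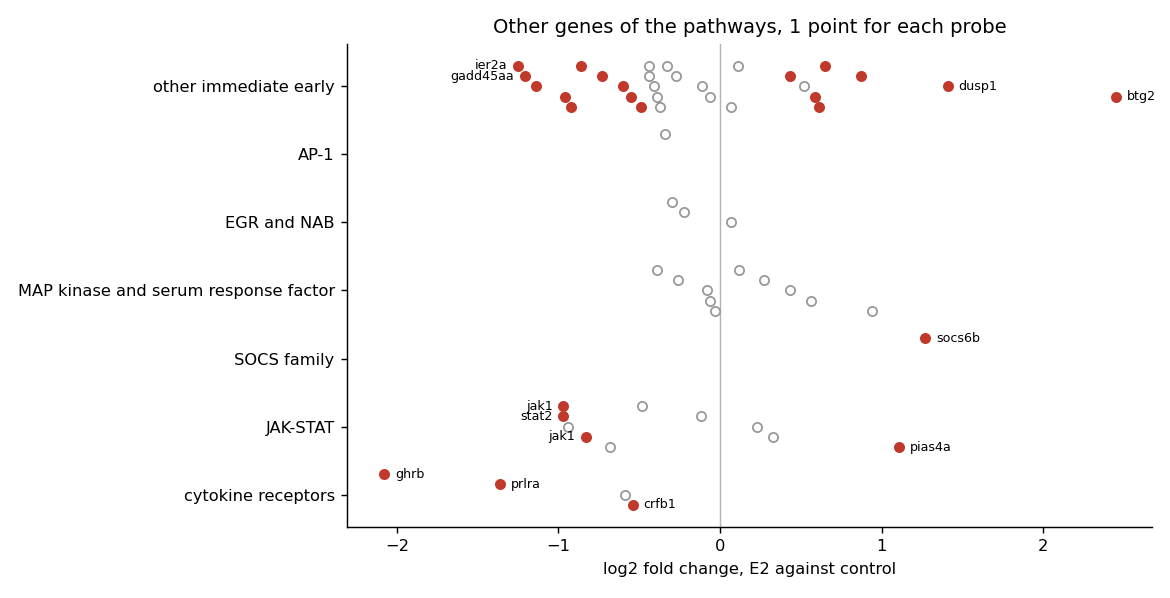
Log2 fold change of E2 against control for the probes of each pathway list, 1 point for each probe; filled red points passed an adjusted p under 0.05 and open points did not, and the vertical position within a list only separates points. The other immediate early genes spread from -1.25 (ier2a) to 2.45 (btg2), and the 3 called cytokine receptor probes lie below 0.

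For each probe the other genes with the most similar values over the 10 arrays were sought by Pearson r among about 5283 annotated probes with complete values. This is a description over fish that share 3 groups. Jun probe 5285784 was most like gmcl1 (r = 0.987), and jun probe 5285761 most like optn (r = 0.964). The fosl2 probes were most like hp, the haptoglobin gene (r = 0.989, probe 5275243), and ttn.2, a titin gene (r = 0.98, probe 5274812). Probe 5270688 of egr1 was most like ppp2r5ea (r = 0.972), socs3a most like pikfyve (r = 0.977) and socs3b most like ugt5b4 (r = 0.986). For egr1 probe 5270967, the probe that passed in no comparison, the closest gene was apoba, an apolipoprotein B gene (r = 0.941), and the next had an r of 0.794 (anp32a).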

How the data were processed

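The deposited values are log2 ratios of single fish to a common reference, which the authors made from GenePix images of a 2-colour oligonucleotide array of 16416 probes by local background subtraction and a Lowess fit per array, keeping hybridizations that scatter plots showed to be good. Another deposited table of log2 ratios holds the same spots before Lowess, and 16 placeholder values of it were set to missing. Software versions are not given in the sources used here. No spot intensities were used, so no depth is given, and precision is limited by the number of arrays, their spread and the noise of single spots. p-values rest on the spread between arrays of 1 fish each, which holds both differences between fish and the noise of the array. In limma that spread is also pooled over the groups and drawn toward the spread of all probes. Of the probes, 6088 carry 1 symbol, 75 several and 10253 none.

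limma 3.58.1 (R 4.3.3) was fitted to all 10 arrays over the 16208 probes that had 2 or more values per group and no more than 6 missing (prior degrees of freedom 4.18). All 3 comparisons were two-sided, and p-values were adjusted over the 16208 probes by the Benjamini-Hochberg method. A fold change is 2 raised to the log2 fold change, and 95% intervals come from the same fit. Probes of a gene were compared by exact permutation. Array positions of a probe are percentiles of the log2 ratios on that array. The fits were tested on simulated data with the same spread in all groups, so a difference in spread between groups was not covered. SAM, the test of the methods, was coded anew as an alternative, with calls at a q-value under 0.05. Other alternatives were other normalizations, filters, weights, a replicate block and leaving out each array. Tables were prepared with Python 3.11.15, numpy 2.4.6 and pandas 2.3.3, and figures drawn with matplotlib 3.10.9.

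The genes and lists were chosen with earlier results of these data known. Text names every probe of the 5 genes and, from each pathway list, at most 4 members with the smallest adjusted p for E2 against control, plus those a statement needs. stat3, lcp1, mpx, lyz, cd74a, cd74b, sgk1 and per1b were named after their values were seen.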

Additional observations from a re-analysis of the deposited data

Results flagged for a closer look

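Among the 4 control fish, replicate 4 stood apart from the others on 2 of the 8 probes in the values after Lowess. On jun probe 5285784 it read -1.64, while the other control fish read -2.31 to -2.30, and the gap was 0.984 of the whole range, above the critical value of Dixon's test. On egr1 probe 5270688 it read -0.65 against -0.75 to -0.74, a gap of 0.866 of the range. Chance gives such a gap in about 1 of 20 groups. Before Lowess the control fish read -2.05, -2.4, -2.22 and -1.6 on jun probe 5285784, less tightly grouped, with replicate 4 still the highest. On egr1 probe 5270688 they read -0.68, -0.99, -0.76 and -1.31 before Lowess, so that replicate 4 was the lowest there and not the highest.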

How the results depend on the processing

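The number of arrays limits these results, since 3 or 4 fish make a group and the arrays of the groups differ in spread. The calls for E2 against control on both fosl2 and both jun probes, socs3a and socs3b, and that for E2+ICI against E2 on jun probe 5285784, passed with their direction in all alternatives. Not all of these could change a member difference. Other filters on missing values, repeated values set to missing, a robust prior and fitting only the 2 groups left those differences as they were. Where values below differ, the cause was not tested.

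For E2 against control, 3104 probes passed higher and 2669 lower (4304 lower with array weights, 1778 to 3509 when an array was left out). The 2 member probes higher became 1 after quantile normalization, 1 with arrays scaled to equal spread, and 1 to 2 when an array was left out. For E2+ICI against control, 1446 probes passed higher and 493 lower. The counts were 552 higher after quantile normalization (53.8% of calls higher, against 74.6%), 707 higher at equal spread (65.8%), 2636 higher and 1461 lower with array weights (64.3%), 963 higher and 167 lower with SAM (85.2%), 189 lower with only the 2 groups fitted, and 770 to 1848 higher and 127 to 596 lower when an array was left out. Member probes lower, 3, became 5 after quantile normalization, 1 with SAM, and 1 to 3 when an array was left out. Member probes higher, 0, became 1 with array weights and 0 to 2 when an array was left out.

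For E2+ICI against E2, 467 probes passed higher and 412 lower. Higher and lower counts were 1888 and 2042 after quantile normalization, 1936 and 1897 at equal spread, 145 and 240 before Lowess (37.7% higher, against 53.1%), 2382 and 2128 with array weights, 1792 and 1522 with only the 2 groups fitted, and 95 to 1437 and 67 to 1259 when an array was left out. Member probes higher, 1, became 2 at equal spread, 3 with array weights, 2 with only the 2 groups fitted, and 0 to 2 when an array was left out. SAM was not run here, since 20 permutations are too few.

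Fish of different groups share only a replicate number: their deviations from group means correlated between -0.232 and 0.18. Only the control group has a replicate 4, so a replicate block in effect leaves that fish out. It gave the member probes the same differences as leaving out control replicate 4, and is no separate check. With the replicate block 1129 probes passed higher and 961 lower for E2+ICI against E2. Jun probe 5285784 passed as 1 member higher for E2+ICI against control (0.81, adjusted p = 0.037), and no other member call changed.

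Directions turned for E2+ICI against control. For egr1 probe 5270688 (0.16) the values were -0.20 after quantile normalization, -0.08 at equal spread, -0.04 and -0.01 without E2+ICI replicates 1 and 3, and up to 0.52 when another array was left out. For egr1 probe 5270967 (0.06) they were -0.02, -0.01, -0.03 without E2+ICI replicate 1, and up to 0.17 when another array was left out. For jun probe 5285784 (0.64) they were -1.22 and -0.24. After quantile normalization the differences in response between probes were -0.18 for egr1 (0.10), -0.33 for fosl2 (0.10) and 0.31 for jun (-1.26). When an array was left out they ran from -0.18 to 0.48 for egr1 and from -0.10 to 0.24 for fosl2, with -0.01 for egr1 without E2+ICI replicate 1 and -0.04 for fosl2 without control replicate 2. The calls of fosl2 probe 5274812 and socs3b for E2+ICI against control were also lost with SAM (q-values 0.0615 and 0.0502, threshold 0.05). The first SAM step of the study selected at a less strict q-value. The call of fosl2 probe 5274812 was also lost with only the 2 groups fitted (adjusted p = 0.0584).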
